A study of Canis lupus familiaris with 36 samples.

Results

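Diffuse large B-cell lymphoma (DLBCL) was compared with marginal zone lymphoma (MZL), as the disease-state labels name the tumours, in 10 DLBCL dogs and 5 MZL dogs, 15 of the 35 dogs and 16 of the 36 arrays of the series. The arrays, Affymetrix canine expression arrays, were hybridised with labelled cRNA from primary tumours that had been broken up mechanically and filtered. The DLBCL dogs were 6 females and 4 males, of which 6 were Golden Retrievers, 2 Rottweilers, 1 a Boxer and 1 a Labrador. Their age at diagnosis was 4 to 14, with a median of 8.5, in a unit the labels do not state. The MZL dogs were 4 females and 1 male, 4 Golden Retrievers and 1 Mastiff, aged 4 to 10 with a median of 6. Every DLBCL tumour was labelled high grade and every MZL tumour low grade, so subtype and grade cannot be told apart. No label named a treatment, the site of the tumour or the share of tumour cells in it. All 15 tumours were labelled B. DLBCL replicates 6 and 7 were 2 arrays whose titles name the same case, and they were averaged into 1 dog. Each other array was a separate dog, so the spread between dogs holds both the animals and the measurement.

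DLBCL is an aggressive lymphoma in which sheets of large B cells replace the architecture of the lymph node. MZL is an indolent lymphoma of medium-sized B cells that grow around fading follicles, and in dogs it is known from the lymph node and the spleen. Dividing cells transcribe the genes of DNA replication in S phase and those of the spindle and kinetochore as they approach mitosis. Resting lymphocytes transcribe genes for quiescence and for the traffic between blood and lymphoid tissue. B cells that have not become plasma cells present antigen on MHC class II molecules, whose genes are switched on by the transactivator CIITA.

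The B-cell label was set against defining genes in the 15 dogs and in the 17 dogs of the series labelled T. MS4A1, which encodes CD20, had log2 intensities of 10.87 to 11.99 in DLBCL and 10.81 to 11.55 in MZL, against 2.91 to 10.80 in the T dogs. CD79B, a signalling chain of the B cell receptor, ran from 9.08 to 11.23 in DLBCL and from 10.29 to 11.48 in MZL, against 1.42 to 10.02 in the T dogs. EBF1, a transcription factor of B cell identity, ran from 7.80 to 9.51 in DLBCL and from 8.46 to 9.43 in MZL, against 2.15 to 7.94. CD79A ran from 6.60 to 9.09 in DLBCL and from 8.00 to 9.75 in MZL, against 2.13 to 8.71 in the T dogs, and CD22 from 6.44 to 8.19 in DLBCL and from 5.67 to 8.39 in MZL, against 2.52 to 7.29. MS4A1 was the 1 of these 5 genes whose 15 values all lay above the T dogs, and the levels of all 5 overlapped between DLBCL and MZL. The T cell marker CD3D was bright in every dog, at 11.12 to 12.20 in DLBCL and 10.17 to 12.03 in MZL, against 11.49 to 13.24 in the T dogs, while CD3E ran from 2.35 to 10.29 in DLBCL and from 5.14 to 9.46 in MZL, against 9.06 to 12.48. PAX5 lay below the minimum of 4 on the log2 scale in all 15 dogs, and CR2, IRF4 and MKI67 were not analysed here. NOTCH2, a receptor known from marginal zone B cells, did not enter the tests and had log2 values of 1.90 to 5.64 in DLBCL and 2.04 to 3.09 in MZL.

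Some arrays stood apart on technical probe sets or against a label. The 3′ actin control reached 14.33 and 14.10 on the log2 scale in DLBCL replicates 4 and 9, against 11.35 to 12.45 in the other DLBCL dogs and 10.79 to 12.15 in MZL. The difference between the 3′ and 5′ actin probe sets, which grows as RNA is degraded or copied incompletely, was 1.37 ± 1.50 in DLBCL and -0.48 ± 0.40 in MZL (SD, n = 10 and 5; difference 1.85, exact permutation p = 0.0176, adjusted over 3 controls 0.0265). For GAPDH the same difference was 3.43 ± 0.30 in DLBCL and 2.94 ± 0.29 in MZL (SD, n = 10 and 5; difference 0.48, exact permutation p = 0.0143, adjusted 0.0265). The actin difference was 4.50 and 3.47 in DLBCL replicates 4 and 9, against -0.27 to 1.75 in the other DLBCL dogs. For GAPDH those 2 dogs had the lowest DLBCL values, 2.90 and 3.15. RNA quality by these measures therefore moved with subtype, though the 2 controls ranked the DLBCL dogs differently. Its part in the results below was not tested beyond a fit that holds both differences as covariates. The median from that fit is given beside each gene list. MZL replicate 2, labelled female, had 10.47 on the probe set that was used to check sex, where the other dogs labelled female had 1.60 to 1.99 and the males 5.98 to 11.20. The 2 arrays of the repeated DLBCL case differed by a median of 0.21 on the log2 scale, while the median SD of a gene was 0.57 between DLBCL dogs and 0.41 between MZL dogs.

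No gene passed an adjusted p of 0.05 between DLBCL and MZL in limma (0.0% of the 7500 genes tested). At an unadjusted p under 0.05 there were 977 genes, where 375 would lie by the nominal rate, 386 with a higher mean in DLBCL (5.15%) and 591 with a lower one (7.88%). The lowest adjusted p was 0.0565, and 26 genes shared it, 5 higher and 21 lower in DLBCL. A difference of at least 2-fold was seen in 449 genes, 147 higher and 302 lower in DLBCL, and the median difference over all genes was -0.03. Every DLBCL dog lay above every MZL dog for 7 genes (0.0933%) and below every MZL dog for 18 genes (0.24%). The 7 were ASPM, TOP2A, IGF2R, CNOT2, CPSF2, VCP and INVS. The 18 were PDLIM2, BCAS4, CD82, CCND3, CD4, KLHL22, TRABD, ABTB1, ARHGAP4, MOB3A, LOC480667, FAM98C, SIPA1, STOML1, RGS19, OTUB1, LAT2 and SUN2. For KLHL22 the highest DLBCL dog (3.9938) and the lowest MZL dog (3.9945) were almost level, and both lay under the minimum of 4. The count of called genes rested on single dogs: it was 68 (0.907%) without DLBCL replicate 3, 43 without replicate 10, 15 without MZL replicate 2, 5 without DLBCL replicate 8, 4 without replicate 9, 1 without replicate 11, 2 without MZL replicate 1, 2 without MZL replicate 5, and 0 without any of the others. It was 378 when arrays were weighted by their own scatter, 39 (0.52%) when values under the minimum were raised to it, and 0 with the 3′ to 5′ differences as covariates, where 454 genes had an unadjusted p under 0.05. All genes named below are therefore given with their measured differences, none of which is called in the fit over 34 dogs.

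**Figure D1:**
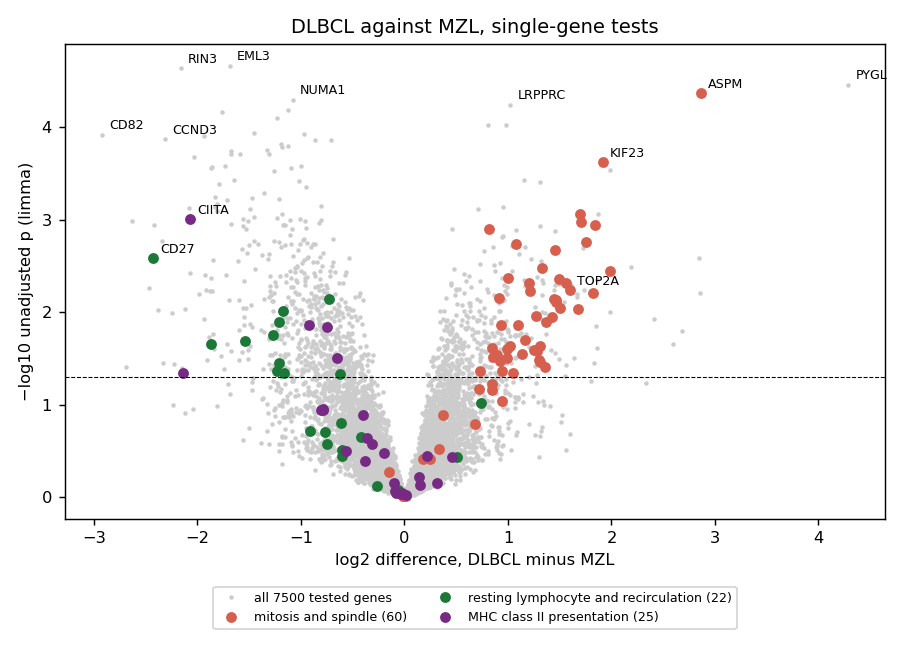
Each point is 1 of the 7500 tested genes, with the log2 difference of DLBCL minus MZL on the horizontal axis and -log10 of limma's unadjusted p on the vertical axis, where the dashed line marks an unadjusted p of 0.05. Mitosis and spindle genes (red, 60) lie to the right, and resting lymphocyte (green, 22) and MHC class II genes (purple, 25) lie mostly to the left.

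Among genes with a higher mean in DLBCL, the smallest p belonged to PYGL, the liver isoform of glycogen phosphorylase. It had log2 values of 5.64 to 10.23 with a median of 9.69 in DLBCL, against 4.14, 3.73, 2.41, 5.32 and 9.16 in MZL replicates 1 to 5. It was bright in 9 of the DLBCL dogs and dim in all MZL dogs but replicate 5, so the groups overlapped. The difference was 4.29 ± 0.89 (SE; limma adjusted p = 0.0565), or 15.1-fold with values under the minimum raised to it, and all 4 probe sets of the gene were higher in DLBCL. LRPPRC, which stabilises mitochondrial messenger RNA, ran from 9.94 to 10.99 with a median of 10.34 in DLBCL, against 9.58, 9.95, 8.77, 8.84 and 9.59 in MZL. All DLBCL dogs but 1 were brighter than the brightest MZL dog, and the difference was 1.02 ± 0.22 (SE; limma adjusted p = 0.0565). TIMMDC1, an assembly factor of respiratory complex I, lay below the minimum in every MZL dog (2.34 to 3.86) and reached it in 7 of 10 DLBCL dogs (3.54 to 5.65), which bounds the difference at at least 1.38-fold higher in DLBCL. The mitochondrial genes ABCB6, a porphyrin transporter, and CLYBL, a citramalyl-CoA lyase, had differences of 1.31 ± 0.33 and 1.31 ± 0.37 (SE; limma adjusted p = 0.0761 and 0.114). DEPDC1B, a gene of the cell division cycle, had a difference of 1.99 ± 0.49, and LOC487476, to which the annotation gives no other name, 1.87 ± 0.51 (SE; limma adjusted p = 0.0645 and 0.114). DEPDC1B ran from 3.11 to 4.20 in MZL, with a mean of 3.55 under the minimum, so the size of its difference is uncertain.

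Among genes with a lower mean in DLBCL, the smallest p belonged to EML3, which binds microtubules. It ran from 5.33 to 7.35 with a median of 6.45 in DLBCL, against 8.03, 7.25, 8.94, 8.22 and 7.71 in MZL. Only MZL replicate 2 lay within the range of the DLBCL dogs, and the difference was -1.69 ± 0.34 (SE; limma adjusted p = 0.0565), 3.22-fold. CD82, a tetraspanin of the cell surface, ran from 3.06 to 7.04 with a median of 5.17 in DLBCL, against 7.55, 7.77, 8.49, 8.62 and 7.87 in MZL. The groups did not overlap, and the difference was -2.92 ± 0.66 (SE; limma adjusted p = 0.0565), the most negative among the genes tested. PDLIM2, a PDZ and LIM domain protein known in mice to promote the breakdown of the NF-kappaB subunit RelA, ran from 7.29 to 8.85 with a median of 8.15 in DLBCL, against 9.08, 8.90, 10.09, 9.10 and 9.12 in MZL. Again every DLBCL dog lay below every MZL dog, by a narrow margin at DLBCL's upper end, and all 3 probe sets of the gene were lower. The difference was -1.13 ± 0.24 (SE; limma adjusted p = 0.0565).

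RIN3, which activates the endocytic GTPase Rab5, was measured above the minimum in only 1 DLBCL dog. Its log2 values ran from 2.00 to 4.01 with a median of 2.88 in DLBCL, against 5.26, 3.70, 6.31, 4.83 and 5.77 in MZL. With values under the minimum raised to it the difference was 2.35-fold, with a limma adjusted p of 0.0197 in that setting. The palmitoyltransferase gene ZDHHC14 was likewise above the minimum in 2 DLBCL dogs and in all 5 MZL dogs, and KLHL22, an adaptor of a ubiquitin ligase, in no DLBCL dog and 4 MZL dogs, at least 1.40-fold lower in DLBCL. Differences of -1.08 to -1.76 were measured for NUMA1, a spindle pole protein, ABHD12, a lysophospholipase, BNIP3L, a receptor for mitophagy, S100A11, a calcium-binding protein, and BCAS4 (limma adjusted p = 0.0565 each). For BCAS4 every DLBCL dog (4.90 to 7.29) lay below every MZL dog (7.59 to 9.09). EML3, RIN3, PYGL and ASPM were each called in 11 of 32 alternative settings fitted over genes.

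**Figure D2:**
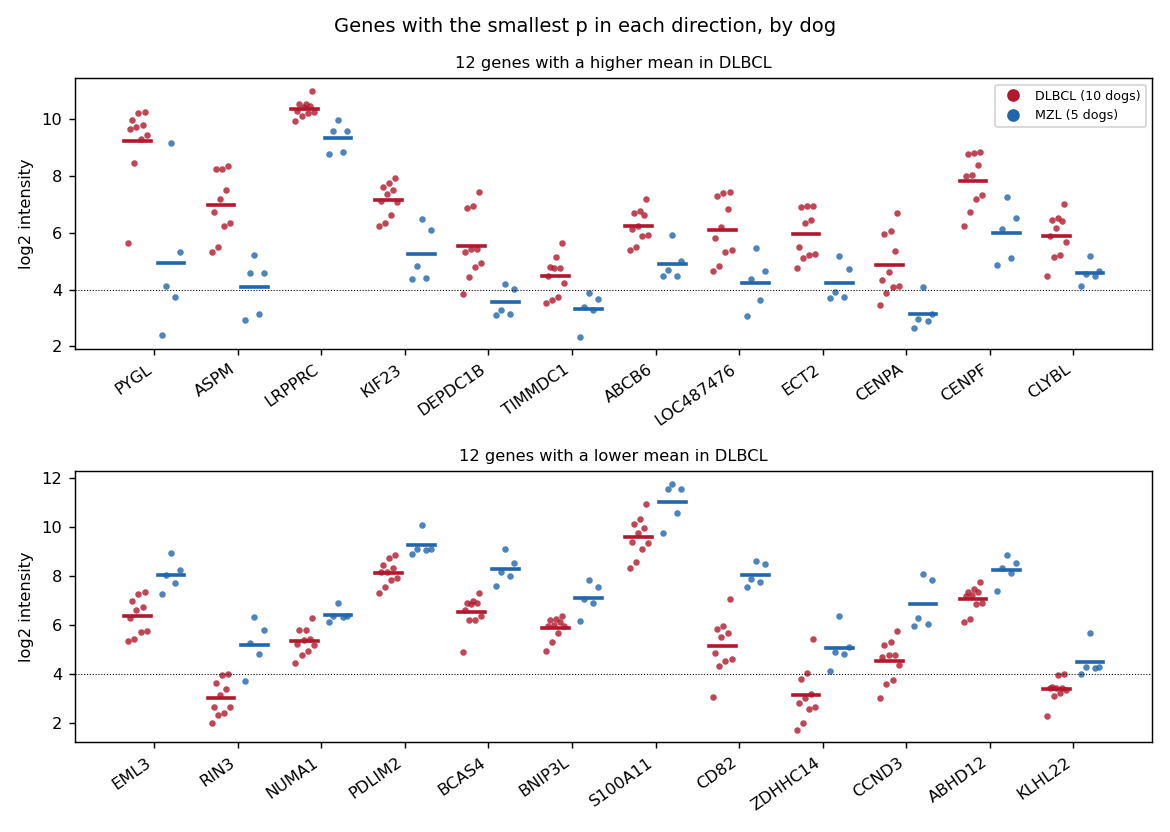
Log2 intensity of the 12 genes with the smallest p in each direction and a difference of at least 1, with 1 point per dog, DLBCL (red, 10 dogs) left of MZL (blue, 5 dogs), bars at the group means and a dotted line at the minimum of 4. ASPM is separated between all dogs in the upper panel, and PDLIM2, BCAS4, CD82 and CCND3 in the lower one. KLHL22 is separated only by values under the minimum, 3.9938 in the highest DLBCL dog and 3.9945 in the lowest MZL dog.

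Genes of mitosis and the spindle had higher means in DLBCL almost throughout. Of 60 tested, 57 were higher and 3 lower in DLBCL, and 47 had an unadjusted p under 0.05, all of them higher, where 5.15% of all genes were that far up. The median difference was 1.15 beside -0.03 over all genes. ASPM, which organises the poles of the spindle, ran from 5.31 to 8.35 with a median of 6.97 in DLBCL, against 4.59, 4.59, 2.93, 3.14 and 5.22 in MZL. Every DLBCL dog lay above every MZL dog, and the difference was 2.87 ± 0.60 (SE; limma adjusted p = 0.0565), or 5.57-fold with values under the minimum raised to it. TOP2A, the topoisomerase that untangles sister chromatids and the target of doxorubicin, ran from 9.51 to 11.54 with a median of 9.87 in DLBCL, against 8.63, 9.23, 8.26, 8.03 and 8.89 in MZL. It too separated the groups without overlap, by 1.60 ± 0.54 (SE; limma adjusted p = 0.193), 3.03-fold. KIF23, a kinesin of cytokinesis, ran from 6.25 to 7.92 with a median of 7.22 in DLBCL, against 4.84, 6.48, 4.40, 4.35 and 6.10 in MZL, where replicates 2 and 5 were the high dogs. Its difference was 1.92 ± 0.46 (SE; limma adjusted p = 0.0633).

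The members reached across the stages of division. ECT2, which starts the contractile ring, had a difference of 1.69 ± 0.46, CENPA, the histone that marks the centromere, 1.71 ± 0.47, and CENPF, an outer kinetochore protein, 1.84 ± 0.51 (SE; limma adjusted p = 0.114 each). CENPA ran from 2.64 to 4.11 in MZL, with a mean of 3.15 under the minimum, so the size of its difference is uncertain. PLK4, the kinase of centriole duplication, differed by 1.76 ± 0.51, SPC25, a subunit of the complex that grips spindle microtubules, by 1.08 ± 0.32, and SGO2, which guards cohesion at the centromere, by 0.82 ± 0.23 (SE; limma adjusted p = 0.135, 0.135 and 0.117). The 3 members with a lower mean were CENPN at -0.15, and MYBL2 and TACC3, both at -0.01. Averaged over the 60 genes, the log2 level was 6.00 to 7.84 in the DLBCL dogs, 5.18 to 6.45 in the MZL dogs, and 7.55 and 7.88 in the 2 dogs of BL, the other subtype labelled B. The 5 MZL values were 5.44, 6.45, 5.48, 5.18 and 6.07, and 7 DLBCL dogs lay above the highest of them, while DLBCL replicates 3, 9 and 10 (6.24, 6.00 and 6.03) lay within the MZL range. The median difference ran from 0.78 to 1.42 over the alternative settings and was lowest with the 3′ to 5′ differences as covariates. It was 1.14 without the arrays that stood apart on the actin control and 1.29 without MZL replicate 2. With array weights 13 of the 60 were called higher (1.69% of all genes were). Without DLBCL replicate 3 the 3 called were ASPM, KIF23 and CDC25C, in a fit that called 0.907% of all genes.

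**Figure D3:**
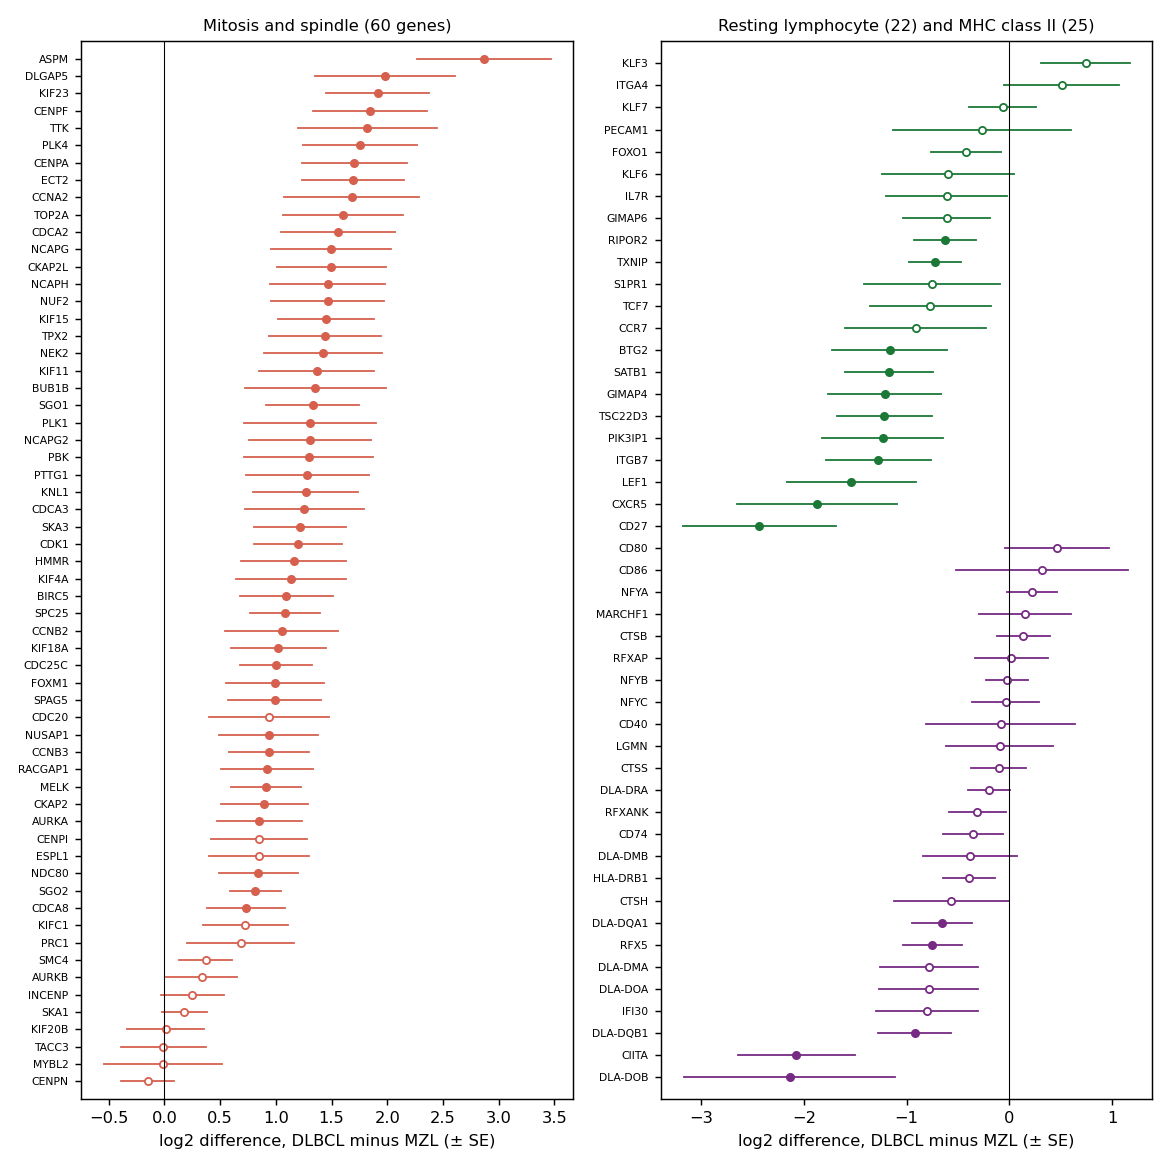
Log2 difference of DLBCL minus MZL with its standard error from limma for each tested member of the mitosis and spindle list (left, 60 genes) and of the resting lymphocyte (right, green, 22) and MHC class II lists (right, purple, 25), with filled points at an unadjusted p under 0.05. The mitosis members lie right of 0 except CENPN, MYBL2 and TACC3, and the resting lymphocyte members lie left of 0 except KLF3 and ITGA4.

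DNA replication genes leaned the same way with smaller differences. Of 46 tested, 41 were higher and 5 lower in DLBCL, and the median difference was 0.38. An unadjusted p under 0.05 was seen for 12, all higher (5.15% of all genes were that far up). MCM10, which helps fire replication origins, ran from 5.11 to 7.10 in DLBCL against 4.00 to 5.79 in MZL, a difference of 1.22 ± 0.38 (SE; limma adjusted p = 0.158). CDC6, the loader of the replicative helicase, differed by 1.67 ± 0.57, and PRIM1, the catalytic subunit of primase, by 0.99 ± 0.33 (SE; limma adjusted p = 0.194 and 0.188). Mean levels over the list were 7.50 to 8.13 in DLBCL and 7.07 to 7.81 in MZL, and 8.16 and 8.53 in BL, so 5 DLBCL dogs lay above the MZL range. The median was 0.21 with the 3′ to 5′ differences as covariates and 0.25 without MZL replicate 4. In the DNA damage and repair list 19 of 20 genes were higher in DLBCL, with a median of 0.55, and 0.21 with those covariates. Of the 19, 6 had an unadjusted p under 0.05 (5.15% of all genes were that far up). FANCD2 of the Fanconi anaemia pathway differed by 1.17 ± 0.39, the recombination mediator BRCA2 by 1.22 ± 0.49, the checkpoint kinase CHEK1 by 0.86 ± 0.34 and the end-resection factor RBBP8 by 0.64 ± 0.22 (SE; limma adjusted p = 0.188 to 0.274).

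The list of regulators of entry into the cycle did not lean with the genes of its later stages. It holds both promoters and inhibitors of entry, so its counts and median do not give a direction of entry. Of 14 tested, 4 were higher and 10 lower in DLBCL, with a median of -0.12, and the only one at an unadjusted p under 0.05 was CCND3. The median was -0.12 with the 3′ to 5′ covariates too, -0.26 without MZL replicate 1, -0.18 without DLBCL replicate 4, -0.07 without MZL replicate 5, and 0.014 with values under the minimum raised to it. CCND3, cyclin D3, ran from 3.03 to 5.77 with a median of 4.74 in DLBCL, against 5.97, 6.27, 8.07, 7.82 and 6.04 in MZL. Every DLBCL dog lay below every MZL dog, by -2.31 ± 0.53 (SE; limma adjusted p = 0.0565), or 4.43-fold with values under the minimum raised to it. CCND2, cyclin D2, was bright in both groups, from 5.44 to 10.59 with a median of 9.36 in DLBCL and from 9.30 to 10.16 in MZL. CCNE1, cyclin E1, ran from 4.07 to 6.39 in DLBCL and from 3.98 to 5.96 in MZL, a difference of 0.97 ± 0.52 (SE; limma adjusted p = 0.439). The other probe set of CCNE1 differed by 0.97 as well (limma unadjusted p = 0.028 in the fit over every probe set). CDKN1B, which encodes the inhibitor p27, lay below the minimum in all 15 dogs.

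Subunits of oxidative phosphorylation had slightly higher means in DLBCL. Of 40 tested, 34 were higher and 6 lower, and 9 had an unadjusted p under 0.05, all higher (5.15% of all genes were). The median difference was 0.22, with a range of 0.15 to 0.30 over the alternative settings. It was 0.24 with the 3′ to 5′ differences as covariates. ATP5F1C, a subunit of the catalytic head of ATP synthase, ran from 11.28 to 12.11 in DLBCL and from 11.16 to 11.56 in MZL, a difference of 0.46 ± 0.13 (SE; limma adjusted p = 0.117). Differences of 0.53 to 0.63 were measured for UQCRC2 of complex III, SDHD of complex II and ATP5MC1 of the membrane ring of ATP synthase. Glycolysis and hypoxia genes leaned the other way, with 3 higher and 17 lower of 20, 4 lower at an unadjusted p under 0.05 (7.88% of all genes were) and a median of -0.38, which was -0.16 with the 3′ to 5′ differences as covariates and -0.24 without DLBCL replicate 5. PKM, pyruvate kinase, differed by -1.93 ± 0.72, the aldolase ALDOC by -1.21 ± 0.48, the glucose transporter SLC2A1 by -0.67 ± 0.31 and HIF1A, a transcription factor of the response to low oxygen, by -0.49 ± 0.23 (SE; limma adjusted p = 0.231 to 0.369). The PKM probe set lay near the minimum in DLBCL, with a mean of 4.30 and a lowest value of 1.76. The other PKM probe set differed by -0.46 (limma unadjusted p = 0.27 in the fit over every probe set). Over the list, 9 of 10 DLBCL dogs lay below the lowest MZL dog (7.91 to 8.73 in DLBCL and 8.65 to 9.09 in MZL).

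MYC, the transcription factor of growth and proliferation, overlapped between the subtypes. It ran from 8.16 to 11.00 with a median of 9.38 in DLBCL, against 10.73, 9.58, 8.41, 8.63 and 9.95 in MZL, a difference of -0.14 ± 0.44 (SE; limma adjusted p = 0.936). Among MYC target and ribosome biogenesis genes 22 of 29 were higher in DLBCL, with a median of 0.17. An unadjusted p under 0.05 was seen for 3 higher genes and 1 lower gene (5.15% and 7.88% of all genes). The median was 0.11 with the 3′ to 5′ covariates, 0.07 without MZL replicate 3 and 0.08 without MZL replicate 4. TFRC, the transferrin receptor, reached the minimum in 6 of 10 DLBCL dogs and in no MZL dog, at least 1.18-fold higher in DLBCL. HSPD1, a mitochondrial chaperone, and PA2G4, a growth regulator of the nucleolus, differed by 0.33 ± 0.14 and 0.51 ± 0.23, and PES1, a ribosome assembly factor, by -0.64 ± 0.31 (SE; limma adjusted p = 0.299, 0.335 and 0.374).

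MHC class II genes had lower means in DLBCL, and their transactivator stood farthest from 0 by p. CIITA ran from 3.07 to 5.61 with a median of 3.74 in DLBCL, against 7.21, 4.64, 7.20, 6.06 and 4.95 in MZL, and 2.47 and 3.72 in BL. Only 4 of 10 DLBCL dogs reached the minimum, as all MZL dogs did, and 8 DLBCL dogs lay below the lowest MZL dog. The difference was -2.07 ± 0.57 (SE; limma adjusted p = 0.114), or 3.28-fold with values under the minimum raised to it. RFX5, a factor that binds class II promoters together with CIITA, ran from 8.69 to 10.19 in DLBCL and from 9.41 to 10.86 in MZL, a difference of -0.75 ± 0.29 (SE; limma adjusted p = 0.248). Of the 25 genes of the list 6 were higher and 19 lower in DLBCL, with a median of -0.31. Of the 19, 5 had an unadjusted p under 0.05 (7.88% of all genes were that far down).

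Among the class II chains, DLA-DQB1 ran from 11.17 to 12.37 with a median of 11.80 in DLBCL, against 12.55, 12.15, 13.05, 12.96 and 12.81 in MZL, a difference of -0.92 ± 0.35 (SE; limma adjusted p = 0.243). DLA-DQA1 differed by -0.66 ± 0.29 and DLA-DOB, a chain of the modulator DO that B cells use to restrain peptide loading, by -2.14 ± 1.02 (SE; limma adjusted p = 0.328 and 0.370). DLA-DRA and the invariant chain CD74 differed by -0.20 and -0.36, at unadjusted p of 0.33 and 0.23. The list's mean level was narrow in MZL, from 9.15 to 9.25, and wide in DLBCL, from 8.38 to 9.27, with 9 DLBCL dogs below the MZL range and replicate 3 above it. The median difference ran from -0.37 to -0.16 over the alternative settings, and it was nearest to 0 with the 3′ to 5′ differences as covariates, -0.35 without the arrays that stood apart and -0.27 without MZL replicate 2.

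MHC class I presentation leaned the same way, with 2 higher and 16 lower of 18 genes. Of the 16, 5 had an unadjusted p under 0.05 (7.88% of all genes were that far down). The median was -0.30, or -0.14 with the 3′ to 5′ covariates. DLA-79, a class I gene of limited polymorphism, ran from 3.53 to 10.29 with a median of 7.01 in DLBCL, against 9.97, 8.05, 10.00, 9.91 and 8.15 in MZL, and 7 DLBCL dogs lay below all MZL dogs. Its difference was -2.07 ± 0.66, and that of TAPBP, the chaperone that loads peptides, was -1.08 ± 0.38 (SE; limma adjusted p = 0.177 and 0.200). The class I gene DLA-64 ran from 7.59 to 11.51 in DLBCL and from 9.41 to 10.53 in MZL. Class I genes resemble each other in sequence to differing degrees, so some of their probe sets may share transcripts. Interferon response genes covered a wide range within both subtypes. Their mean level ran from 4.32 to 8.38 in DLBCL, against 5.21, 9.46, 6.60, 8.70 and 8.40 in MZL. Of 20 tested, 1 was higher, CXCL10 with a difference of 1.52, and 19 were lower in DLBCL. The only one at an unadjusted p under 0.05 was IRF9, a transcription factor of the interferon pathway, with a difference of -1.10 ± 0.36 (SE; limma adjusted p = 0.182). The median of that list was -0.41, and -0.28 with the 3′ to 5′ covariates, and ranged from -1.18 to 0.12 over the alternative settings. It was -1.18 without MZL replicate 1, -0.68 without MZL replicate 3 and -0.73 without the arrays that stood apart, and -0.26, -0.17, -0.13, -0.12 and -0.08 without DLBCL replicate 8, MZL replicate 5, MZL replicate 4, DLBCL replicate 2 and MZL replicate 2.

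Genes of resting and recirculating lymphocytes had lower means in DLBCL. Of 22 tested, 2 were higher (KLF3 and ITGA4) and 20 lower, with a median of -0.76. An unadjusted p under 0.05 was seen for 11 lower genes (7.88% of all genes were that far down) and none higher. CD27, a costimulatory receptor of lymphocytes, ran from 2.05 to 7.75 with a median of 3.37 in DLBCL, against 5.09, 6.53, 8.04, 7.55 and 6.34 in MZL. It was below the minimum in 6 of 10 DLBCL dogs and above it in all MZL dogs, a difference of -2.43 ± 0.74 (SE; limma adjusted p = 0.156), or 3.18-fold with values under the minimum raised to it. CXCR5, the receptor that leads B cells into follicles, differed by -1.87 ± 0.78, and ITGB7, an integrin chain of homing to the gut, by -1.27 ± 0.51 (SE; limma adjusted p = 0.286 and 0.266). TXNIP, which curbs glucose uptake, differed by -0.73 ± 0.25, and TSC22D3, a glucocorticoid-induced gene, by -1.22 ± 0.46 (SE; limma adjusted p = 0.200 and 0.235). SATB1, a chromatin organiser of lymphocytes, and GIMAP4, a lymphocyte GTPase, differed by -1.17 ± 0.43 and -1.21 ± 0.55 (SE; limma adjusted p = 0.215 and 0.338). The list's mean level ran from 5.30 to 6.75 in DLBCL and from 6.52 to 7.14 in MZL, with 9 DLBCL dogs below the MZL range, and was 5.97 and 5.58 in BL. The median ran from -1.09 to -0.49 over the alternative settings, nearest to 0 with the 3′ to 5′ differences as covariates, and was -0.85 without the arrays that stood apart and -0.81 without MZL replicate 2. Of the 22, 8 were called lower with array weights (3.35% of all genes were).

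T cells transcribe several of these genes too, and T cell markers moved with the subtypes. Of 22 T cell genes tested, 4 were higher and 18 lower in DLBCL, with a median of -0.86. An unadjusted p under 0.05 was seen for 1 higher and 5 lower genes (5.15% and 7.88% of all genes). The list's mean level ran from 3.68 to 5.64 in DLBCL, against 4.15, 5.27, 5.73, 6.10 and 5.36 in MZL. CD5 ran from 2.84 to 5.00 in DLBCL and from 4.50 to 6.41 in MZL, and CD7 from 2.85 to 6.13 in DLBCL and from 4.47 to 7.14 in MZL. CD4 ran from 3.13 to 4.08 in DLBCL, below all 5 MZL dogs at 4.18 to 5.93. CD3G, which couples the T cell receptor to signalling, went against them, from 9.08 to 10.86 in DLBCL and from 6.96 to 10.13 in MZL. Many of these genes lie near the minimum, and with values under it raised to it the median was -0.16, and it was -0.67 with the 3′ to 5′ covariates. Which share of the lower resting lymphocyte values goes with T cells was not tested, and in bulk tissue fewer cells of a type and less RNA per cell cannot be told apart.

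**Figure D4:**
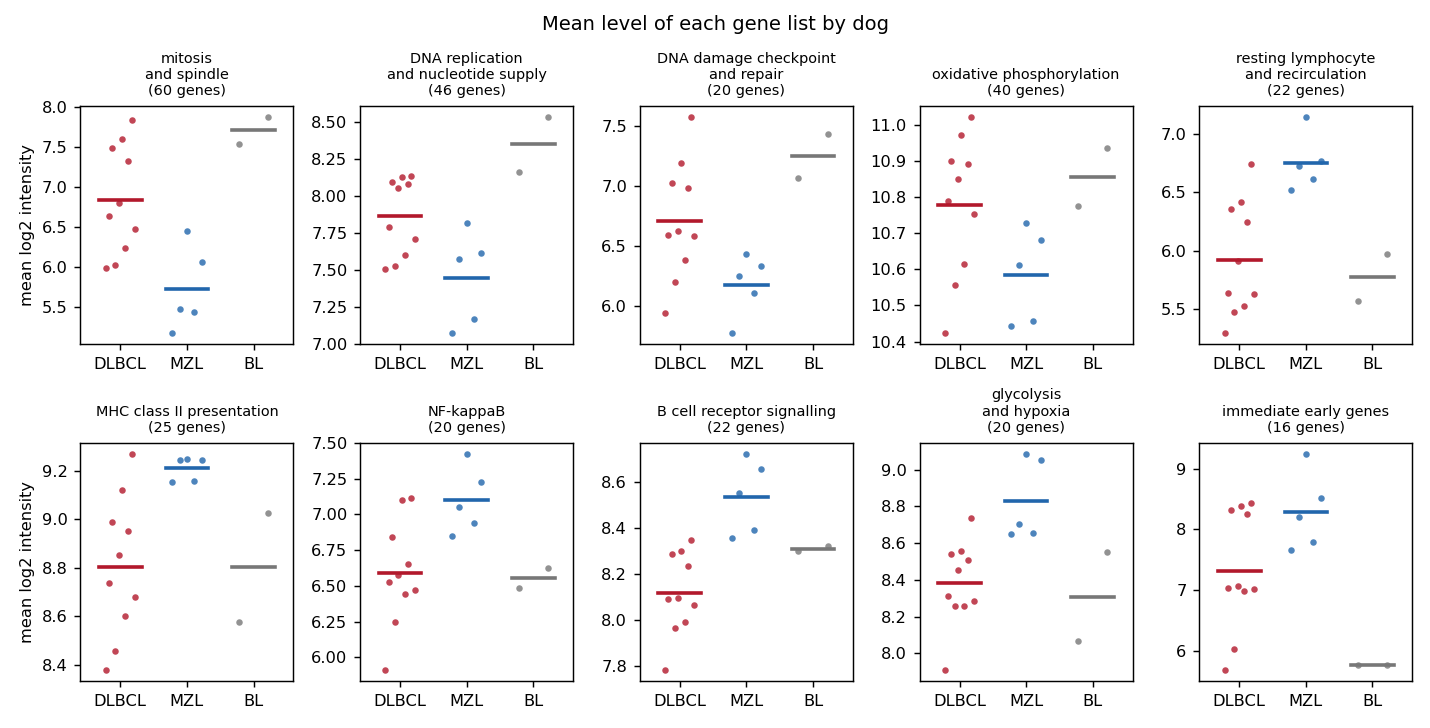
Mean log2 intensity over the tested members of 10 gene lists, with 1 point per dog for DLBCL (red, 10), MZL (blue, 5) and BL (grey, 2) and bars at the group means, each panel on its own vertical scale. DLBCL lies mostly above MZL for mitosis, replication, repair and oxidative phosphorylation, and mostly below it in the other 6 panels.

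Genes of NF-kappaB signalling had lower means in DLBCL. Of 20 tested, 2 were higher and 18 lower, with differences of -1.56 to 1.27. Of the 18, 7 had an unadjusted p under 0.05 (7.88% of all genes were that far down), and neither of the higher genes did. The median was -0.56, with a range of -0.68 to -0.40 over the alternative settings and -0.41 with the 3′ to 5′ covariates. NFKB2, the p100 precursor of the non-canonical pathway, ran from 3.19 to 8.83 with a median of 7.84 in DLBCL, against 9.11, 8.32, 9.19, 8.84 and 8.53 in MZL. All but 2 DLBCL dogs lay below the lowest MZL dog, and the difference was -1.56 ± 0.56 (SE; limma adjusted p = 0.215). Its partner RELB differed by -1.28 ± 0.49 and TNIP1, an inhibitor of the pathway, by -0.71 ± 0.26 (SE; limma adjusted p = 0.242 and 0.228). The adaptor TRAF2 ran from 5.18 to 7.67 in DLBCL and from 7.09 to 8.94 in MZL. The list thus held lower means for both activators and an inhibitor. TNFRSF13C, the BAFF receptor that feeds the non-canonical pathway, ran from 4.41 to 7.29 in DLBCL and from 6.11 to 8.01 in MZL, a difference of -1.26 ± 0.58 (SE; limma adjusted p = 0.344).

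B cell receptor signalling genes, when averaged, lay lower in every DLBCL dog than in any MZL dog, by a very narrow margin. The mean level over 22 genes was 7.78 to 8.35 in DLBCL and 8.36 to 8.73 in MZL. The closest dogs were DLBCL replicate 8 at 8.349 and MZL replicate 2 at 8.356. By gene, 3 were higher and 19 lower, with a median of -0.42, and -0.33 with the 3′ to 5′ covariates. Of the 19, 4 had an unadjusted p under 0.05 (7.88% of all genes were that far down). AKT1, a survival kinase downstream of PI3K, ran from 3.20 to 5.40 with a median of 4.13 in DLBCL, against 4.17, 5.53, 7.37, 7.18 and 5.91 in MZL. MZL replicate 1 lay among the DLBCL dogs, and the difference was -1.83 ± 0.48 (SE; limma adjusted p = 0.0989). PIK3CD, the PI3K subunit of leukocytes, differed by -1.12 ± 0.45, the transcription factor NFATC2 by -0.93 ± 0.43 and the adaptor GRB2 by -0.53 ± 0.22 (SE; limma adjusted p = 0.266 to 0.343). MALT1, a protease that links the receptor to NF-kappaB, had a higher mean in DLBCL by 0.88 ± 0.57 (SE; limma adjusted p = 0.547), and its probe sets differed in sign.

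Immediate early genes, which cells switch on within minutes of a stimulus or of handling, had lower means in DLBCL, with a list median of -0.84. Of 16 tested, 1 was higher and 15 lower in DLBCL, 5 lower at an unadjusted p under 0.05 (7.88% of all genes were). JUNB, a subunit of AP-1, ran from 4.80 to 9.43 with a median of 6.59 in DLBCL, against 8.36, 9.11, 8.53, 10.27 and 7.92 in MZL, and 4.14 and 4.09 in BL. The DLBCL dogs were spread widely, 7 of 10 below the MZL range, and the difference was -2.25 ± 0.82 (SE; limma adjusted p = 0.219). ZFP36, which promotes the decay of cytokine messages, differed by -1.86 ± 0.63, and the nuclear receptor NR4A1 by -2.23 ± 1.02 (SE; limma adjusted p = 0.193 and 0.342). The list's mean level ran from 5.69 to 8.43 in DLBCL and from 7.66 to 9.25 in MZL, and the time from removal to lysis is not given in the labels. The median was -0.46 with the 3′ to 5′ differences as covariates, -0.54 without MZL replicate 4 and -0.56 without DLBCL replicate 5.

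Genes taken as marks of the marginal zone, the germinal centre and the plasma cell had higher and lower members in each list. In the marginal zone list 6 of 18 genes were higher and 12 lower in DLBCL. An unadjusted p under 0.05 was seen for 1 higher and 3 lower genes (5.15% and 7.88% of all genes). The list's median was -0.21, and -0.28 with the 3′ to 5′ covariates. Single dogs moved that median, which was -0.42 without MZL replicate 3, -0.38 without DLBCL replicate 3, -0.34 without DLBCL replicate 8 and -0.10 without DLBCL replicate 4, and it ran from -0.56 to -0.09 over the alternative settings. PLD4, an endosomal exonuclease of B cells and plasmacytoid dendritic cells, ran from 6.51 to 9.48 with a median of 7.08 in DLBCL, against 8.75, 9.18, 9.55, 9.37 and 9.13 in MZL. DLBCL replicate 4 was the 1 DLBCL dog within the MZL range, and the difference was -1.89 ± 0.76 (SE; limma adjusted p = 0.271). FCRL1, a receptor-like B cell protein, differed by -1.16 ± 0.54 (SE; limma adjusted p = 0.347), and FCRL4, known in humans from memory B cells of mucosal tissue, by 0.78 ± 0.45 (SE; limma adjusted p = 0.479). The 1 higher gene at an unadjusted p under 0.05 was CD1E, with a difference of 1.55. It was 8.42 in DLBCL replicate 3, 1.53 to 5.57 in the other DLBCL dogs and 1.55 to 2.03 in MZL.

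In the germinal centre list 8 of 18 were higher and 10 lower, none at an unadjusted p under 0.05, with a median of -0.05. Leaving out each dog in turn gave -0.20 (without DLBCL replicate 4) to 0.04 (without MZL replicate 3), so the sign of that median rested on single dogs, and it was -0.25 without the arrays that stood apart and 0.019 with the 3′ to 5′ covariates. BCL6, the repressor that maintains germinal centre B cells, ran from 3.03 to 9.63 with a median of 6.22 in DLBCL, against 7.46, 6.49, 7.29, 7.75 and 6.87 in MZL, and 7 DLBCL dogs lay below the MZL range. The difference was -1.12 ± 0.73 (SE; limma adjusted p = 0.552). EZH2, a histone methyltransferase of germinal centre and dividing cells, ran from 7.31 to 8.85 in DLBCL and from 7.04 to 8.02 in MZL, and was 9.75 and 9.71 in BL, a difference of DLBCL from MZL of 0.49 ± 0.28 (SE; limma adjusted p = 0.479). Among activated B cell and plasma cell genes 9 were higher and 11 lower of 20, with a median of -0.01, which was 0.085 with the 3′ to 5′ covariates and -0.05 to 0.05 on leaving out each dog in turn (without DLBCL replicate 4 and without replicate 9). IL16, a chemoattractant, differed by -0.79 ± 0.25 and JCHAIN, the joining chain of secreted IgM and IgA, by 0.98 ± 0.57 (SE; limma adjusted p = 0.169 and 0.493). IL16 was the only 1 of the 20 at an unadjusted p under 0.05, where 7.88% of all genes were that far down.

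B cell identity genes were 8 higher and 11 lower of 19, with a median of -0.38 that was -0.04 without MZL replicate 2, -0.16 without MZL replicate 4, -0.18 without DLBCL replicate 9 and -0.30 with the 3′ to 5′ covariates. None of the higher genes and 3 of the lower had an unadjusted p under 0.05, where 7.88% of all genes were that far down. CD37, a tetraspanin of mature B cells, was tightly held in MZL (11.14 to 11.34) and lower in 9 of 10 DLBCL dogs (10.37 to 11.32), a difference of -0.53 ± 0.20 (SE; limma adjusted p = 0.237). CD79A ran from 6.60 to 9.09 in DLBCL and from 8.00 to 9.75 in MZL, a difference of -1.25 ± 0.75 (SE; limma adjusted p = 0.510). MS4A1 differed by 0.17 ± 0.91 (SE; limma adjusted p = 0.969), and PTPRC, which encodes CD45, ran from 9.21 to 11.85 in DLBCL and from 9.76 to 11.02 in MZL. The standard errors come from the spread in all 34 dogs of 6 subtypes, so genes that vary among the T lymphomas carry wide errors here. In the fit over the B lymphomas alone 16 genes were called, 2 higher and 14 lower in DLBCL, and in the fit over the DLBCL and MZL dogs alone none.

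Cell death regulators and chromatin regulators held members on both sides of 0. Of 14 cell death genes 4 were higher and 10 lower in DLBCL, with a median of -0.11, which was -0.041 with the 3′ to 5′ covariates and -0.18 (without MZL replicate 4) to -0.05 (without MZL replicate 1) on leaving out each dog in turn. The proapoptotic BAX ran from 4.46 to 7.05 with a median of 5.97 in DLBCL, against 7.08, 6.71, 7.47, 7.12 and 6.62 in MZL, with 9 DLBCL dogs below the MZL range and a difference of -1.10 ± 0.37 (SE; limma adjusted p = 0.188). BAX was the only 1 of the 14 at an unadjusted p under 0.05, where 7.88% of all genes were that far down. BCL2, which blocks apoptosis, ran from 5.16 to 9.71 in DLBCL and from 6.30 to 8.71 in MZL, a difference of -0.84 ± 0.53 (SE; limma adjusted p = 0.530). The chromatin list divided into 10 higher and 10 lower, with a median of -0.05 and no member at an unadjusted p under 0.05. That median was -0.15 with the 3′ to 5′ covariates and -0.06 to 0.04 on leaving out each dog in turn (without DLBCL replicate 8 and without MZL replicate 4).

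Markers of other cells in the tissue varied within both subtypes. Of 17 macrophage and dendritic genes 6 were higher and 11 lower in DLBCL, with a median of -0.24 and mean levels of 3.99 to 6.39 in DLBCL and 4.83 to 6.44 in MZL. The median was 0.0038 without MZL replicate 2, the dog whose sex probe set went against its label, -0.06 without DLBCL replicate 1, -0.10 without DLBCL replicate 8 or without MZL replicate 1, and -0.11 with the 3′ to 5′ covariates. C1QA, a complement component made by macrophages, ran from 5.46 to 10.56 with a median of 7.24 in DLBCL, against 10.32, 10.21, 8.97, 10.77 and 10.30 in MZL, and 7 DLBCL dogs lay below the MZL range. Its difference was -2.15 ± 1.01 (SE; limma adjusted p = 0.352). C1QA was the only 1 of the 17 at an unadjusted p under 0.05, where 7.88% of all genes were that far down. The related C1QC and C1QB differed by -1.18 and -0.73. Of 14 follicular dendritic cell genes listed 5 entered the tests, and none had an unadjusted p under 0.05. All 5 were lower in DLBCL, as were 4006 of the 7500 genes tested, and their median was -0.65. Among them was CXCL13, the chemokine of follicles, which ran from 4.06 to 9.32 in DLBCL and from 6.51 to 9.24 in MZL. That median was -1.10 without MZL replicate 3, -0.42 without MZL replicate 2 and -0.65 with the 3′ to 5′ covariates, with a range of -1.11 to -0.29 over the alternative settings.

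Stromal genes had a median of 0.03 over 12 genes, a value whose sign turned with single dogs: it was 0.63 without MZL replicate 2, -0.59 without DLBCL replicate 11, -0.17 without DLBCL replicate 3, -0.23 to -0.31 without any 1 of the other 4 MZL dogs and 0.15 with the 3′ to 5′ covariates. The mean stromal level was high in 1 dog of each group, 7.73 in DLBCL replicate 11 and 7.13 in MZL replicate 2, beside 3.49 to 5.49 in the others. Cytotoxic and natural killer genes had a median of 0.33 over 11 genes, which was -0.04 without DLBCL replicate 3, 0.12 to 0.68 without any other 1 dog, 0.18 with the 3′ to 5′ covariates and -0.38 to 0.68 over the alternative settings. Their mean level was 8.12 in DLBCL replicate 3 beside 3.52 to 6.15 in the other DLBCL dogs and 3.92 to 6.15 in MZL. Of 7 neutrophil and mast cell genes 5 were higher and 2 lower in DLBCL, with a median of 0.22, which was -0.12 with the 3′ to 5′ covariates, -0.06 without DLBCL replicate 2 and 0.39 without MZL replicate 1. Of 4 endothelial genes 2 were higher and 2 lower, with a median of -0.04, which was -0.21 with those covariates and -0.14 (without MZL replicate 1) to 0.09 (without MZL replicate 2) on leaving out each dog in turn. None of the red cell and platelet genes entered the tests. The part of these cells in the differences above was not tested.

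DLBCL replicate 3 differed from the other DLBCL dogs in several of the gene groups above. RGS13, a regulator of G protein signalling in germinal centre B cells, was 10.79 in that dog and 2.04 to 2.69 in the other DLBCL dogs, against 2.14 to 2.57 in MZL. PRDM1, the repressor that drives plasma cell differentiation, was 6.46 there and at most 3.17 in the other DLBCL dogs. CCND2 was 5.44 there and 8.78 to 10.59 in the other DLBCL dogs, against 9.30 to 10.16 in MZL. The same dog had the highest DLBCL values of BCL6 (9.63), JCHAIN (13.74), XBP1 (11.29), a factor of secretory cells, BCL2 (9.71) and CD27 (7.75). The mean level of the germinal centre list was 7.20 in that dog, beside 5.55 to 6.26 in the other DLBCL dogs and 5.74 to 6.16 in MZL, and its mitosis level was 6.24. Its 3′ to 5′ actin difference was -0.27, the lowest in DLBCL and within the MZL range of -1.03 to -0.06. Without it the difference of CCND2 was 0.015 in place of -0.41, and the count of called genes was 68, of which 19 were higher and 49 lower in DLBCL. All 68 were also among the 378 called with array weights, where that dog had a weight of 0.42. Both settings lessen the part of that dog, so their overlap is not independent. Other dogs were weighted unevenly too, with 3.09 and 2.13 for MZL replicates 5 and 4. DLBCL replicates 8, 9 and 4 had 0.49, 0.61 and 0.61.

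**Figure D5:**
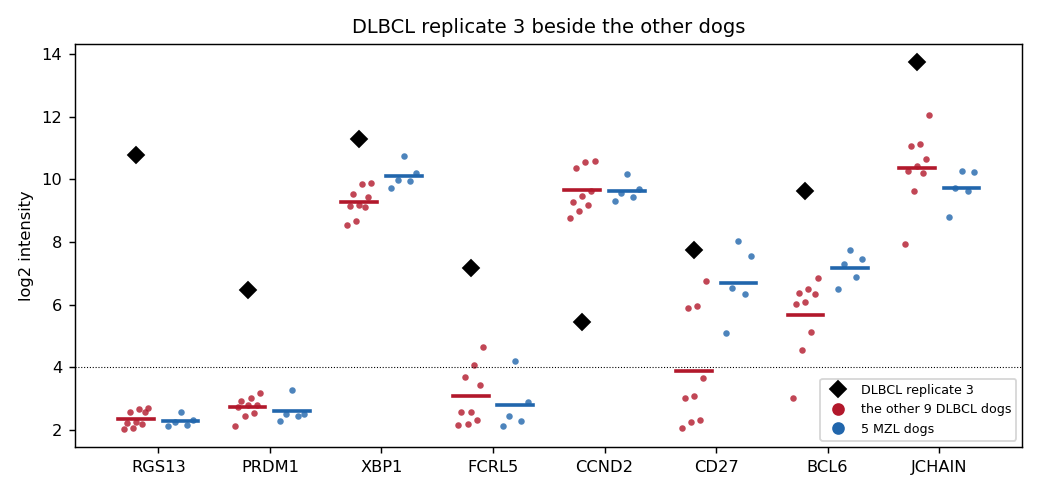
Log2 intensity of 8 genes in DLBCL replicate 3 (black diamond), the other 9 DLBCL dogs (red) and the 5 MZL dogs (blue), with bars at the means of the red and blue points and a dotted line at the minimum of 4. The diamond is far above the red points for RGS13, PRDM1, FCRL5 and BCL6 and far below them for CCND2.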

How the data were processed

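The authors deposited linear intensities for every probe set of every array, summarised with GCRMA per the submitters' processing notes (version not given in the sources used here). Intensities were floored at 1 and put on a log2 scale. Of 43035 probe sets, 29254 carried a single gene symbol in the platform annotation, which stood for 15115 genes, and the probe set brightest on average across the arrays represented its gene. Genes that reached 4 on the log2 scale, an intensity of 16, in at least 4 of 34 dogs entered the tests, 7500 in all. That minimum also served as the limit of measurement where folds are given as "at least", which set the mean of the brighter subtype over that limit.

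limma 3.58.1 in R 4.3.3 fitted 1 mean for each of 6 subtypes (lmFit, eBayes, two-sided, Benjamini-Hochberg over the genes tested, called at an adjusted p under 0.05), and DLBCL minus MZL was the contrast. The 3 RNA controls were compared by an exact permutation test over 3003 assignments of the 15 dogs. The fitting step was tested on simulated data. Gene lists were described by counts and medians without a test, and their level is the mean log2 value of their tested members in a dog. Both the comparison and the lists were chosen with earlier results of these data known. Named are the 12 genes of smallest p in each direction with a log2 difference of at least 1, up to 4 genes of smallest p per list (8 for 6 of them), 20 set genes, and up to 10 that most alternatives called. Some genes that this rule leaves out are also named, after their values were seen. Among them are genes that separate the groups, some that go against the rest of a list, B and T cell markers, and DLA-DRA and CD74. Alternatives changed the filter, the normalization, the variance model, array weights, the probe set, the dogs in the fit and the covariates. The number of arrays limits the precision.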

Additional observations from a re-analysis of the deposited data

Results flagged for a closer look

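Within the DLBCL or the MZL dogs, 26 of 267 sets of values of a named gene (9.74%) had a dog far from the others, the highest or lowest value lying apart by more than Dixon's 95% limit, where chance gives about 1 in 20. DLBCL replicate 3 accounted for 8 of them. It was the highest DLBCL dog for RGS13 (10.79), XBP1 (11.29), FCRL5 (7.17), PRDM1 (6.46), GRB2 (8.60) and CDKN2D (6.36), and the lowest for CCND2 (5.44) and HSPD1 (12.11).

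Among the other DLBCL dogs, replicate 9 was the lowest for PYGL (5.64) and CCNE1 (4.07), and replicate 5 for BCAS4 (4.90) and NFKB2 (3.19). Replicate 1 was the highest for MALT1 (6.82) and the lowest for PSMB9 (8.55). The dog with 2 arrays was the lowest for DLA-DMA (8.05), while replicate 4 was the highest for PLD4 (9.48) and replicate 8 for FCRL1 (6.85).

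In MZL, replicate 2, the dog whose sex probe set went against its label, was the lowest for DLA-DMA (9.51), DLA-DOA (10.48) and ARID1A (10.00). Replicate 1 was the lowest for TXNIP (10.08), SPI1 (6.36) and IRF9 (8.74). Replicate 3 was the highest for PDLIM2 (10.09) and KLHL22 (5.66), and replicate 4 the lowest for ATP5MC1 (9.76).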

How the results depend on the processing

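The count of called genes was 0 and depended on the setting: 17 of 32 alternatives fitted over genes called a gene, and 388 genes were called in at least 1 of them, while a further fit over every probe set called 7 probe sets. It was 378 with array weights, 39 with values under the minimum raised to it, 20 with both arrays of the repeated dog counted separately (chosen after seeing the data), 19 without the arrays that stood apart, 17 under the stricter filter, 16 over B lymphomas only, 13 on averaging the probe sets of a gene, 6 in Golden Retrievers only and 2 in females only. Leaving out each dog in turn gave 0 to 68, with 68 without DLBCL replicate 3, 43 without replicate 10, 5 without replicate 8, 4 without replicate 9, 1 without replicate 11, 15 without MZL replicate 2, and 2 without MZL replicate 1 or without MZL replicate 5. No gene was called without a filter, with arrays centred or quantile normalized, with a trend and robust variance, in the DLBCL and MZL dogs only, with sex, breed and age as covariates, with the arrays that stood apart as a block, or with the 3′ to 5′ differences as covariates. The 977 genes at an unadjusted p under 0.05 were 1680 with array weights, 637 in females only and 454 with the 3′ to 5′ covariates, and 662 to 1201 on leaving out each dog. Of the 39 genes called with values raised to the minimum, 35 were among the 378 of array weights, and 32 of the 43 without replicate 10 were among the 68 without replicate 3. The cause of these moves was not tested.

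Single genes turned sign as follows: FAS with the 3′ to 5′ covariates (0.21), RGS13 and CXCL10 in Golden Retrievers (-0.024 and -0.058), CD1C in females (0.20), CCND2 without DLBCL replicate 3 (0.015, beside -0.56 to 0.015 on leaving out any 1 dog), and MYC without MZL replicate 1 (0.18, beside -0.40 to 0.18) and without the arrays that stood apart (0.11). PTPRC, at 0 in effect, was 0.044 in females, 0.057 on averaging its probe sets, 0.033 with sex, breed and age as covariates, 0.020 without the arrays that stood apart, 0.026 without the dog with 2 arrays (DLBCL replicates 6 and 7), and -0.19 to 0.14 on leaving out each dog. No paired analysis was possible because the replicate numbers only follow the order of the samples and pair no dogs. The planned random block for the repeated dog could not be fitted, since 1 pair gave no estimate of its correlation. Values near or below the minimum carry little information, and 5 MZL dogs limit every comparison.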
